A study of Mus with 2 samples.

Results

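The mitotic spindle and kinetochore genes examined here are 42 genes listed by symbol, out of 27998 genes in each of 2 single-cell RNA libraries of mouse hematopoietic stem cells (HSCs). All 42 were found in both libraries, and all 42 are protein-coding genes in RefSeq, spread over 16 chromosomes. They fall into 6 role groups: chromosome structure (5 genes), the chromosomal passenger complex (3), centromere, kinetochore and spindle checkpoint (8), spindle assembly and microtubules (12), midzone and cytokinesis (6), and regulators of entry into and exit from mitosis (8).

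When a cell divides, its chromosomes are condensed and attached through kinetochores, protein plates built on the centromeres, to microtubules of the spindle. A checkpoint holds the cell until every kinetochore is attached. The anaphase-promoting complex then lets the sister chromatids part, and a contractile ring at the spindle midzone cleaves the cell. Most of these genes are transcribed in late S phase, G2 and mitosis, and quiescent cells hold few copies of their transcripts. Most HSCs of an adult mouse are quiescent at any time, whereas early erythroid and neutrophil precursors divide quickly.

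The libraries came from Mx1-Cre Id2+/+ and Mx1-Cre Id2Δ/Δ mice, 1 library per genotype, each from the tibias and fibulas of 5 pooled mice aged 8 to 12 weeks. Both genotypes carried Mx1-Cre, a recombinase under an interferon-responsive promoter that pIpC switches on in blood cells and in other cells that respond to interferon. The study's text places the purification of these HSCs 2 weeks after pIpC, and the floxed line was backcrossed to C57BL/6. Lineage-negative Sca-1+ c-Kit+ (LSK) cells that were FLT3- CD150+ CD48- were sorted, 1000 per genotype, and loaded onto a 10x Genomics Chromium. That platform tags every captured RNA molecule with a barcode shared by its droplet and with an identifier of its own (UMI). A clause of the label text for the Id2Δ/Δ sample gives Id2+/+ bones as its source, but the group was taken from its title and genotype field, which both name the deletion. The comparison asks how much of the machinery of division the sorted cells transcribe with and without Id2, an inhibitor of DNA binding. With 1 pooled library per genotype no difference between genotypes has a replicate check, no test was run, and every 95% interval in parentheses covers counting error alone.

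Total UMIs were 8612217 in Id2+/+ and 17140713 in Id2Δ/Δ. Of 349 and 632 barcodes called as cells (the labels give 383 and 686 analyzed cells), 333 and 625 were under the mitochondrial limit, and 1 barcode was called in both libraries. Clusters were built without the 42 genes or 120 other cell cycle genes and named by markers: stem-like cells (182 Id2+/+ and 346 Id2Δ/Δ cells), platelet-biased-like cells (80 and 70), erythroid-like cells (44 and 169) and neutrophil-like cells (27 and 40), from here on called by the first word. Median depth was 6389 and 9015.5 UMIs in stem cells, 10571.5 and 17866.5 in platelet-biased cells, 33769.5 and 38755 in erythroid cells, and 17626 and 17986.5 in neutrophil cells. The 9 HSC markers summed to 1065 and 713 CPM (counts per 1000000 UMIs) in stem cells and to 109 and 116 CPM in erythroid cells. The sort was for HSCs, so the erythroid and neutrophil cells are other cells within it. Id2 had 22 UMIs in the stem and platelet-biased cells of the Id2+/+ library and 0 in those of the Id2Δ/Δ library, where 3 counts would be 0.640 CPM. These tags lie near the 3′ end of a transcript, and whether the deleted segment reaches them was not examined here. Apart from 2 clusters, clusters followed the libraries. The neutrophil cluster held 27 Id2+/+ and 40 Id2Δ/Δ cells, and an erythroid cluster rich in haemoglobin held 9 and 14. Of the stem cells, 178 of 182 Id2+/+ cells formed 1 cluster led by Meg3 and Fos, while the Id2Δ/Δ cells fell into 3 clusters of 187, 113 and 46 cells led by Cd74, by Ung and by Ccnb2. The clusters led by Ung and by Ccnb2 were named stem for HSC markers above the erythroid and neutrophil cells, not above the other stem cells. The platelet-biased cells of each library formed a cluster of their own, led by Hist1h2ap in Id2+/+ and by Pf4 in Id2Δ/Δ. The name covers unlike cells. In the Id2+/+ cluster 7 platelet and 6 erythroid markers passed the naming fold, and in the Id2Δ/Δ cluster 11 and 2. The median cell had 806 CPM of platelet markers in Id2+/+ and 3939 CPM in Id2Δ/Δ.

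Erythroid cells held the highest summed level of the members and stem cells the lowest, in both libraries. In stem cells the 42 genes summed to 783 CPM (734 to 834) in Id2+/+ and 1416 CPM (1376 to 1457) in Id2Δ/Δ. Under the alternatives tried, the stem sum ran from 343 CPM (free RNA subtracted) to 1339.9 CPM (cell cycle genes left in the clustering) in Id2+/+ and from 934 to 1449 CPM in Id2Δ/Δ. In erythroid cells the sums were 5844 CPM (5718 to 5972) and 7220.1 CPM (7155 to 7286). Platelet-biased cells, with 2554 and 3963 CPM, and neutrophil cells, with 2561 and 3322 CPM, lay between them. The erythroid class includes a haemoglobin-rich cluster of 9 Id2+/+ and 14 Id2Δ/Δ cells, with 1640 CPM over both libraries. Its Id2+/+ level, from 43 UMIs, was below that of the Id2+/+ stem cells. The other erythroid cells had 6171 and 7312 CPM. The barcodes of 1 to 100 UMIs, which hold RNA free in the suspension and no whole cell, had 4987 and 5805 CPM, nearer to the erythroid cells than to the stem cells. The order of the pools was stem, then platelet-biased and neutrophil, then the barcodes of 1 to 100 UMIs, then erythroid. Platelet-biased and neutrophil cells of the Id2+/+ library had overlapping intervals, and no other neighbours in that order did within a library.

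**Figure D1:**
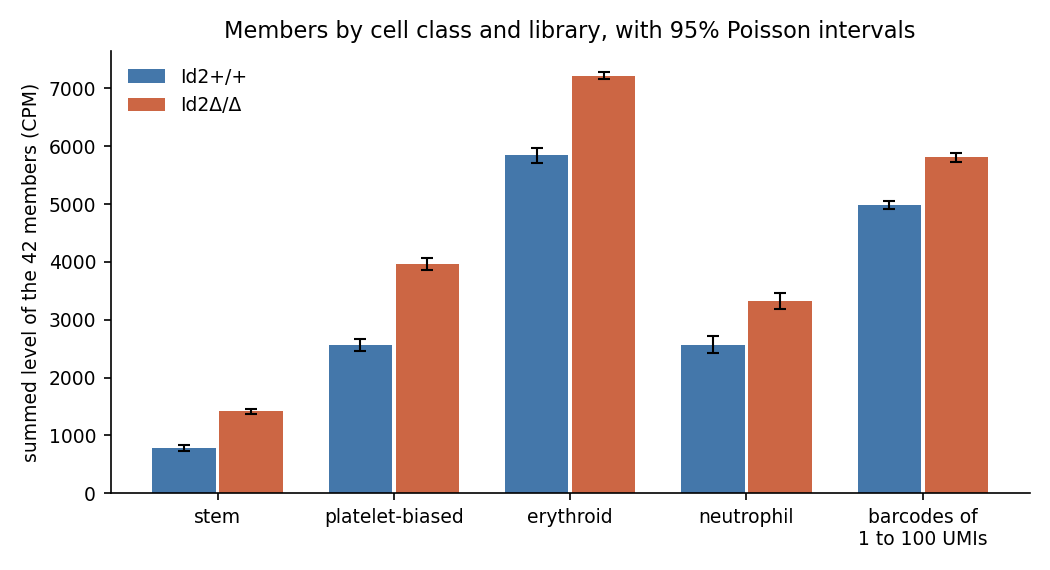
Summed level of the 42 members in counts per 1000000 UMIs (CPM) for each cell class and for the barcodes of 1 to 100 UMIs, Id2+/+ in blue and Id2Δ/Δ in orange, 1 library each. Bars start at 0 and error bars are 95% Poisson intervals for counting error; the Id2Δ/Δ bar is the higher one in all 5 pairs, from 783 against 1416 CPM in stem cells to 5844 against 7220.1 CPM in erythroid cells.

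Gene by gene, all 42 members were at least 2-fold higher in erythroid than in stem cells of the Id2+/+ library, where 11.7% of all genes tested were. In the Id2Δ/Δ library 41 of 42 were, against 10.6% of all genes. The median log2 ratio was 2.98 in Id2+/+ and 2.41 (from 0.92 to 4.57) in Id2Δ/Δ, beside -0.30 and -0.32 over all genes. Cdc25c had 0 UMIs in Id2+/+ stem cells and 32 in erythroid cells, so it was at least 9.30-fold higher there, taking 3 counts as the limit for a 0. With stem counts under 3 set to 3 and no count added, a choice made after seeing the data, the Id2+/+ median was 3.02. Kif23, a motor of the midzone, had the smallest ratio in Id2+/+, with 13.9 CPM in stem and 30.0 CPM in erythroid cells. Platelet-biased cells were at least 2-fold above stem cells for 29 of 34 members tested in Id2+/+ and 32 of 41 in Id2Δ/Δ, against 4.57% and 3.92% of all genes. Neutrophil cells were for 16 of 23 and 21 of 40, against 7.53% and 6.17%. The contrast of platelet-biased with stem cells moved with the clustering. With the cell cycle genes left in it, the Id2+/+ members summed to 1339.9 CPM in stem and 1832 CPM in platelet-biased cells, nearer to each other than the sums above. Genes with under 20 UMIs over the pair were not tested, and low members of the stem cells passed that limit only through the other class. In the barcodes of 1 to 100 UMIs, 40 and 37 of 42 members were at least 2-fold above the stem cells, against 12.6% and 8.42% of all genes. Against erythroid cells, the same barcodes were at least 2-fold lower for 3 members of the Id2+/+ library, Ect2, Anln and Top2a, where 3.87% of all genes were, and for 0 of the Id2Δ/Δ library, against 2.68%. Set against stem and platelet-biased cells pooled, 39 of 42 members in Id2+/+ and 36 of 42 in Id2Δ/Δ were at least 2-fold higher in erythroid cells (background 8.75% and 9.19%), and 34 and 28 of 42 in the barcodes of 1 to 100 UMIs (background 9.76% and 7.04%). For neutrophil cells the same comparison put 7 of 37 and 7 of 41 members at least 2-fold higher (background 5.52% and 5.85%), and 3 and 1 lower (background 28.9% and 31.9%).

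**Figure D2:**
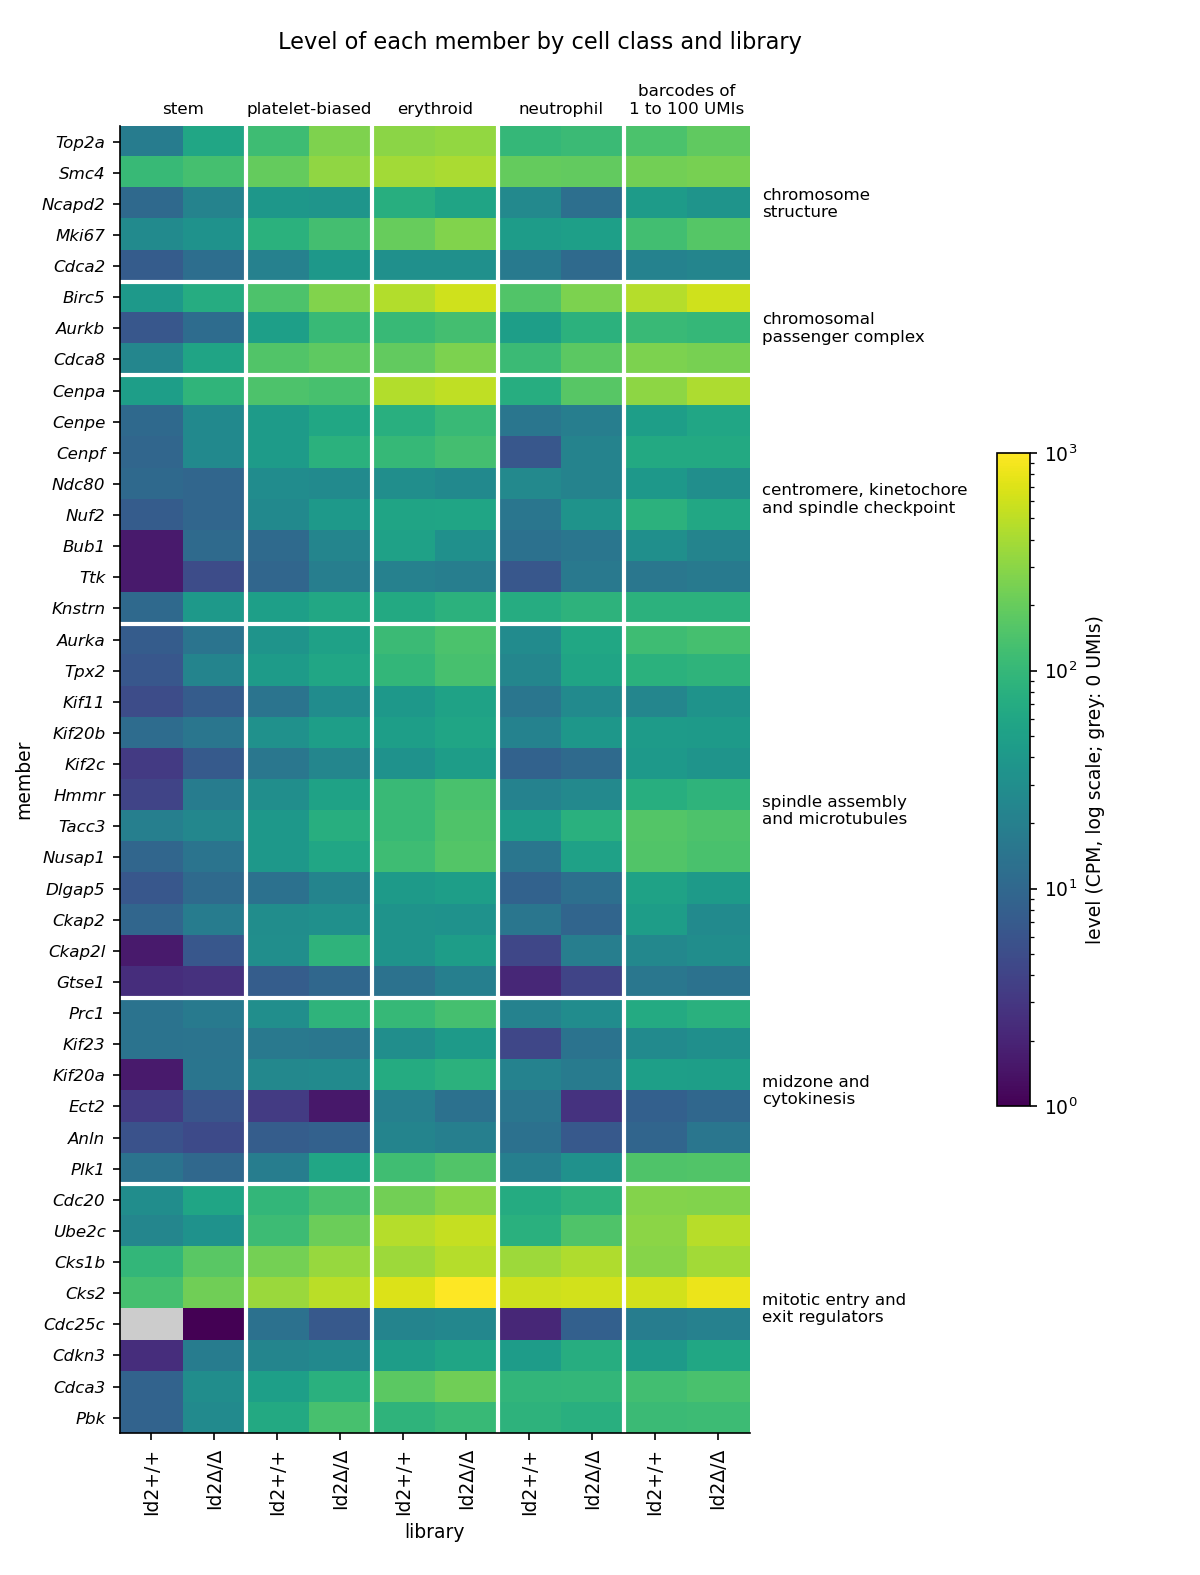
Level of each of the 42 members in CPM on a log color scale, with members in rows by role group and, in columns, the 4 cell classes and the barcodes of 1 to 100 UMIs of each library. For most members the stem cell columns are the darkest and the erythroid columns the brightest; the grey cell is Cdc25c, with 0 UMIs in Id2+/+ stem cells.

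In what follows the stem and platelet-biased cells of a library are pooled (262 Id2+/+ and 416 Id2Δ/Δ cells) for the comparison of genotypes, a choice made after the clusters were seen, because the members' genotype ratio in stem cells alone moved with the clustering. Over both classes the 42 members summed to 1541 CPM (1488 to 1594) in Id2+/+ and 2122 CPM (2080.5 to 2164) in Id2Δ/Δ, a ratio of 1.38 (1.32 to 1.43). The median log2 ratio of the members was 0.50, beside -0.08 over all genes tested, and 37 of 42 members had a log2 ratio above 0. Of the 42, 13 were at least 1.5-fold higher in Id2Δ/Δ, where 3.30% of all genes were, and 1, Cdc25c, was at least 1.5-fold lower, where 13.5% were. The counting interval of the ratio lay above 1 for 21 members, below 1 for 0, and held 1 for 21. Neither intervals nor signs were counted over all genes, so these counts stand without a background share. The 13 were Bub1, Ckap2l, Top2a, Cdkn3, Hmmr, Knstrn, Prc1, Ttk, Cenpf, Pbk, Cdca3, Kif20a and Aurkb. For Ttk and Kif20a the interval held 1. Summed markers were lower in Id2Δ/Δ for erythroid cells (13 of 13 detected in both, 3099 and 2641 CPM) and neutrophil cells (10 of 10, 1073 and 641 CPM), and also for B cells, monocytes or macrophages, mast cells or basophils, and endothelial or stromal cells. They were higher for platelet-biased cells (12 of 12, 1531 and 2269 CPM) and for T or NK cells, 103 CPM (89.9 to 118) from 2 of 5 markers and 124 CPM (114 to 134) from 1 of 5. The 9 HSC markers stood at 785 and 603 CPM. The part of these differences in the members' ratio was not tested.

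Among the chromosome structure genes, Smc4, a core subunit of condensin, which compacts chromosomes (ENSMUSG00000034349, chromosome 3, 69004738 to 69034623, GRCm38), had most UMIs in stem cells. Smc4 stood at 105 CPM (87.5 to 125) in Id2+/+ and 131 CPM (119 to 144) in Id2Δ/Δ stem cells. In platelet-biased cells its level was 194 and 313 CPM, in erythroid cells 380.0 and 413 CPM, in neutrophil cells 195 and 189 CPM, and in the barcodes of 1 to 100 UMIs 227 and 244 CPM, each pair in the order Id2+/+ and Id2Δ/Δ. The ratio of Smc4 was 1.25 (1.02 to 1.53) in stem cells and 1.62 (1.35 to 1.94) in platelet-biased cells. Over stem and platelet-biased cells the ratio of Smc4 was 1.27 (1.11 to 1.45). Top2a, the topoisomerase that untangles sister chromatids, stood there at 60.0 CPM (50.1 to 71.3) in Id2+/+ and at 115 CPM (105 to 125) in Id2Δ/Δ, with a ratio of 1.91 (1.57 to 2.33). Its intervals did not overlap, and it was the 1 member of this group past 1.5-fold. The ratios of Mki67, which coats mitotic chromosomes and encodes the proliferation marker Ki-67, at 1.16 (0.927 to 1.46), and of the condensin subunit Ncapd2, at 1.15 (0.815 to 1.64), had intervals that held 1. Cdca2, which brings a phosphatase to chromatin, had a ratio of 1.51 (0.982 to 2.40), which was short of 1.5-fold once 0.5 had been added to each count, as it was for every call. As a group the 5 genes had 289.7 CPM (267 to 313) and 401 CPM (383 to 419.8).

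The chromosomal passenger complex moves from centromeres to the midzone and corrects faulty attachments. Its member with most UMIs in stem cells was Birc5, which encodes survivin (ENSMUSG00000017716, chromosome 11, 117849237 to 117855743). Birc5 stood at 41.8 CPM (31.1 to 54.9) in Id2+/+ and 72.9 CPM (64.1 to 82.6) in Id2Δ/Δ stem cells. Its platelet-biased level was 145 and 272 CPM, in erythroid cells 454 and 603 CPM, in neutrophil cells 154 and 253 CPM, and in the barcodes of 1 to 100 UMIs 458 and 602 CPM, each pair in the order Id2+/+ and Id2Δ/Δ. Birc5 was higher in the Id2Δ/Δ library in all 5 pairs. In the Id2+/+ stem cells it lay below the 50.6 CPM that free RNA alone would give. Over stem and platelet-biased cells Birc5 had a ratio of 1.49 (1.26 to 1.77), its kinase partner Aurkb one of 1.52 (1.11 to 2.11) and Cdca8, which encodes borealin, one of 1.14 (0.948 to 1.36). The group summed to 190.3 CPM (172 to 209.7) and 256 CPM (242 to 271), and 1 of its 3 members, Aurkb, was past 1.5-fold.

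Cenpa, the histone variant that marks centromeres (ENSMUSG00000029177, chromosome 5, 30666877 to 30674837), had most UMIs in stem cells among the centromere and kinetochore genes. Cenpa stood at 48.3 CPM (36.8 to 62.4) in Id2+/+ and 92.7 CPM (82.7 to 104) in Id2Δ/Δ stem cells. In platelet-biased cells its level was 146 and 132 CPM, in erythroid cells 447 and 519 CPM, in neutrophil cells 73.6 and 165 CPM, and in the barcodes of 1 to 100 UMIs 313 and 423 CPM, each pair in the order Id2+/+ and Id2Δ/Δ. In stem cells the Id2Δ/Δ level was above the Id2+/+ one, in platelet-biased cells below it with overlapping intervals, so that over both classes the ratio was 1.15 (0.973 to 1.37), an interval that held 1. Bub1, a checkpoint kinase, had 12 UMIs in Id2+/+ and 67 in Id2Δ/Δ stem and platelet-biased cells, a ratio of 2.54 (1.36 to 5.16), the highest of the 42. In erythroid cells the ratio of Bub1 was 0.621 (0.472 to 0.823), with the Id2Δ/Δ library the lower one. Knstrn, which helps kinetochores hold microtubules, had a ratio of 1.76 (1.31 to 2.39), the kinetochore protein Cenpf one of 1.69 (1.24 to 2.34), the kinetochore motor Cenpe one of 1.45 (1.06 to 2.02) and the checkpoint kinase Ttk one of 1.74 (0.880 to 3.74). Ndc80 and Nuf2, which form a dimer that binds microtubules, had ratios of 0.794 (0.528 to 1.21) and 1.21 (0.805 to 1.87), and both intervals held 1. The 8 genes together stood at 211 CPM (192 to 232) and 286 CPM (271 to 302), with 4 past 1.5-fold.

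For spindle assembly, Tacc3, which cross-links the microtubules that pull on kinetochores (ENSMUSG00000037313, chromosome 5, 33658128 to 33672203), had most UMIs in stem cells. Tacc3 stood at 19.7 CPM (12.6 to 29.3) in Id2+/+ and 24.8 CPM (19.8 to 30.7) in Id2Δ/Δ stem cells. Its platelet-biased level was 39.4 and 76.2 CPM, in erythroid cells 105 and 147 CPM, in neutrophil cells 45.5 and 81.2 CPM, and in the barcodes of 1 to 100 UMIs 157 and 147 CPM, each pair in the order Id2+/+ and Id2Δ/Δ. The intervals in stem cells overlapped. In the barcodes of 1 to 100 UMIs Tacc3 was above the Id2+/+ erythroid level, with a ratio of 1.498 (1.25 to 1.81), and this ratio was the highest among the 42 members. Taking stem and platelet-biased cells together, Ckap2l, a spindle microtubule protein, was at 14.1 CPM (9.49 to 20.1) in Id2+/+ and 29.2 CPM (24.5 to 34.6) in Id2Δ/Δ, giving a ratio of 2.08 (1.39 to 3.20), and Hmmr, which organizes spindle poles, a ratio of 1.79 (1.22 to 2.71). These were the 2 members of the group past 1.5-fold. Of the other 10, Aurka, the kinase of spindle poles, had a ratio of 1.26 (0.877 to 1.84), its activator Tpx2 one of 1.46 (1.05 to 2.06), and the motor Kif11, which pushes the poles apart, one of 1.49 (0.877 to 2.63). Gtse1 was at 4.69 and 4.70 CPM. The other 6, Kif2c, Kif20b, Nusap1, Dlgap5, Ckap2 and Tacc3, had ratios from 1.17 to 1.503, and of these only the interval of Tacc3 lay above 1. All 12 summed to 193 CPM (174 to 212) and 270.2 CPM (256 to 285).

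Prc1, which bundles the antiparallel microtubules of the midzone (ENSMUSG00000038943, chromosome 7, 80294445 to 80316259), had most UMIs in stem cells among the midzone and cytokinesis genes, counted over both libraries. In erythroid cells and in the barcodes of 1 to 100 UMIs Plk1 had more. Prc1 stood at 13.9 CPM (8.11 to 22.3) in Id2+/+ and 16.8 CPM (12.7 to 21.8) in Id2Δ/Δ stem cells. In platelet-biased cells its level was 30.7 and 88.6 CPM, in erythroid cells 103 and 129 CPM, in neutrophil cells 21.7 and 28.9 CPM, and in the barcodes of 1 to 100 UMIs 68.3 and 81.1 CPM, each pair in the order Id2+/+ and Id2Δ/Δ. The difference between the libraries was widest in platelet-biased cells, where the ratio was 2.89 (1.90 to 4.54), and in stem cells the intervals overlapped. Over both classes the ratio of Prc1 was 1.74 (1.25 to 2.47). Kif20a, the motor that carries the passenger complex to the midzone, had a ratio of 1.53 (0.969 to 2.50) and Plk1, a kinase at work from mitotic entry to cytokinesis, one of 1.51 (1.02 to 2.29), short of 1.5-fold by the same rule. Kif23, a subunit of the centralspindlin complex, at 0.968 (0.627 to 1.52), and Anln, the anillin scaffold of the contractile ring, at 0.878 (0.445 to 1.81), lay near or below 1. Ect2, which activates the small GTPase of the ring, had only 7 and 23 UMIs. The group of 6 stood at 73.6 CPM (62.5 to 86.0) and 104 CPM (94.9 to 114), with Prc1 and Kif20a past 1.5-fold.

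Of the regulators of mitotic entry and exit, Cks2, a small subunit that docks cyclin-dependent kinases on their substrates (ENSMUSG00000062248, chromosome 13, 51645232 to 51650662), had most UMIs in stem cells. Cks2 stood at 130.3 CPM (111 to 152) in Id2+/+ and 226 CPM (210.4 to 243) in Id2Δ/Δ stem cells. Its platelet-biased level was 357 and 484 CPM, in erythroid cells 701 and 985 CPM, in neutrophil cells 595 and 617 CPM, and in the barcodes of 1 to 100 UMIs 617 and 816 CPM, each pair in the order Id2+/+ and Id2Δ/Δ. Cks2 was higher in Id2Δ/Δ in stem, platelet-biased and erythroid cells, and its intervals overlapped in neutrophil cells. In stem and platelet-biased cells together Cks2 had a ratio of 1.31 (1.18 to 1.45) and its paralog Cks1b one of 1.40 (1.24 to 1.59). For Cdc20, the activator of the anaphase-promoting complex, the ratio was 1.36 (1.11 to 1.68), and for Ube2c, a ubiquitin-conjugating enzyme of that complex, 1.32 (1.08 to 1.62). Cdkn3, a phosphatase of cyclin-dependent kinases, had a ratio of 1.82 (1.15 to 2.98), the mitotic kinase Pbk one of 1.68 (1.29 to 2.21) and Cdca3, linked to the destruction of a kinase that restrains mitotic entry, one of 1.65 (1.22 to 2.26). These 7 intervals lay above 1, and the last 3 genes were past 1.5-fold. Cdc25c, the phosphatase that switches on Cdk1, had 12 UMIs in each library, 5.62 CPM (2.91 to 9.83) in Id2+/+ and 2.56 CPM (1.32 to 4.47) in Id2Δ/Δ, giving a ratio of 0.455 (0.187 to 1.11). The 8 genes summed to 583 CPM (551 to 616) and 804 CPM (779 to 830.2).

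**Figure D3:**
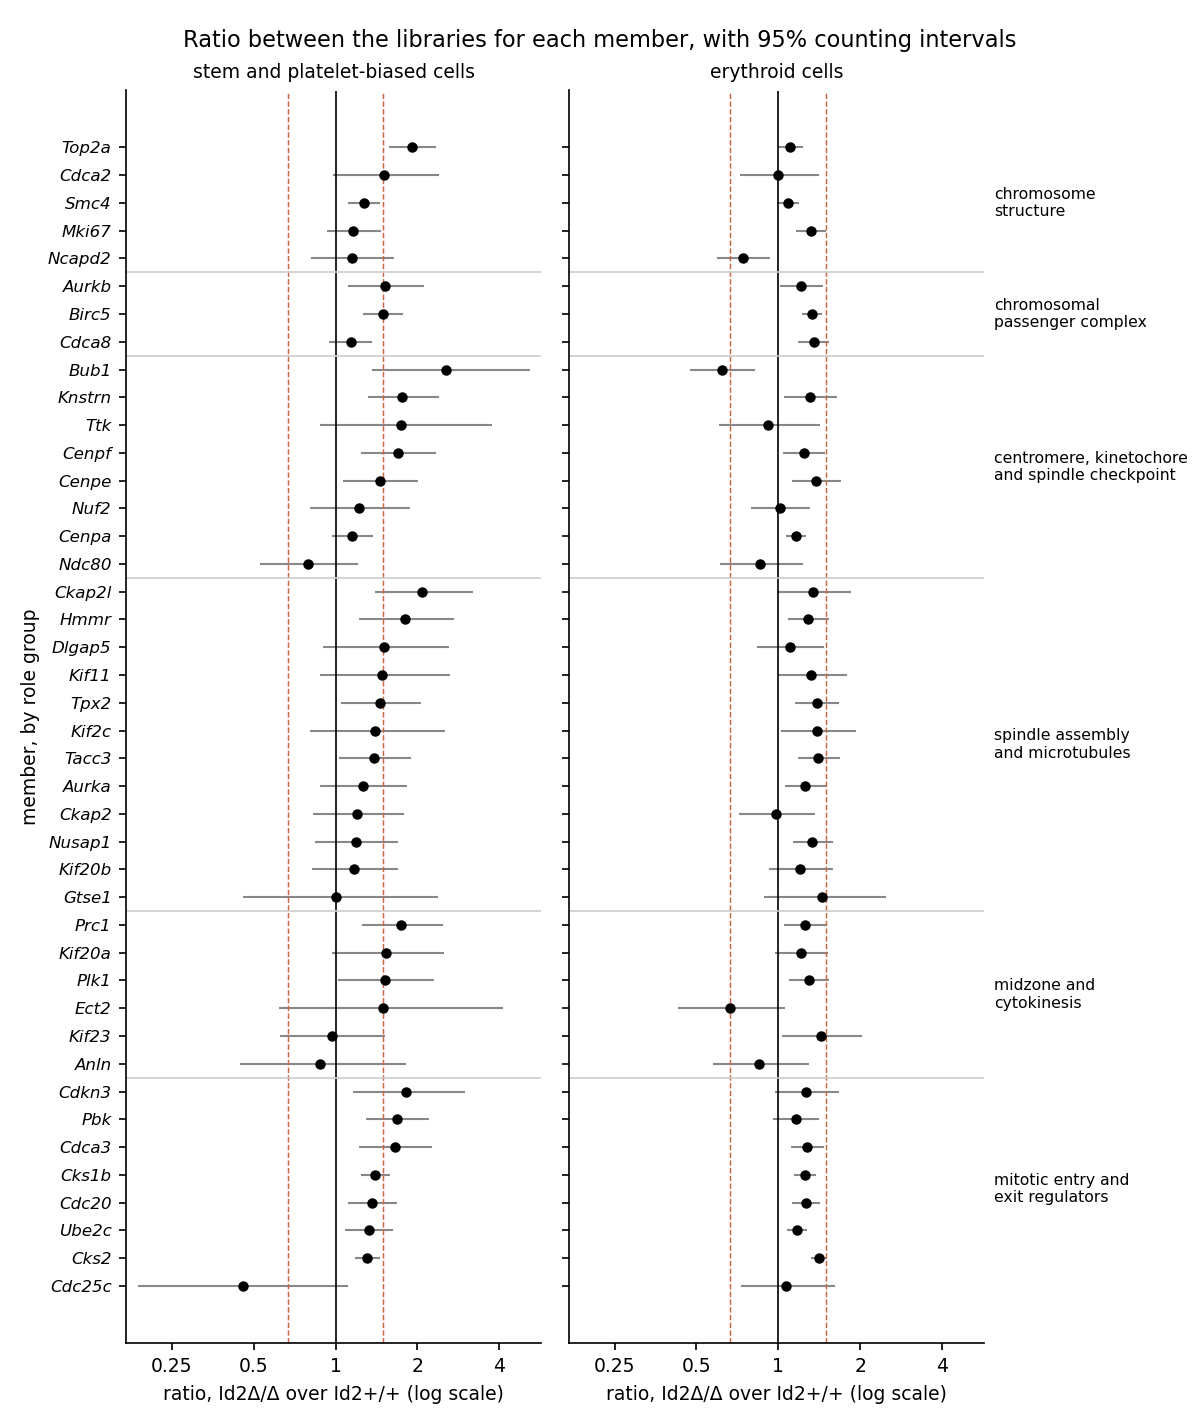
Ratio of Id2Δ/Δ over Id2+/+ for each of the 42 members, on a log axis, in stem and platelet-biased cells together (left) and in erythroid cells (right), by role group, 1 library per genotype. Points are ratios of CPM, bars are 95% counting intervals, and dashed lines mark a fold of 1.5. The bars of 21 members lie wholly above 1 on the left and those of 22 on the right, and Bub1 stands at 2.54 and 0.621. The share of all genes with such bars was not counted.

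In stem cells alone the summed ratio was 1.81 (1.69 to 1.94) and the median log2 ratio 0.81, and 26 of the 39 members tested were at least 1.5-fold higher in Id2Δ/Δ, against 6.51% of all genes. None was 1.5-fold lower, against 16.5%. Ttk, Gtse1 and Cdc25c had under 20 UMIs and were not tested. Markers moved in the same cells, with intervals apart. They were higher in Id2Δ/Δ for platelet-biased cells, 315 and 456 CPM (12 and 12 of 12 markers), and T or NK cells, 72.9 and 122 CPM (1 and 1 of 5 markers). They were lower for HSCs, 1065 and 713 CPM (9 and 9 of 9 markers), neutrophil cells, 1199.6 and 722 CPM (10 and 10 of 10 markers), erythroid cells, 3072 and 2864 CPM (13 and 13 of 13 markers), monocytes or macrophages, 67.2 and 45.5 CPM (3 and 5 of 6 markers), and endothelial or stromal cells, 67.2 and 37.5 CPM (3 and 4 of 6 markers). For B cells and for mast cells or basophils the intervals overlapped. The part of the markers in the members' ratio was not tested. These values of the members moved with the processing, and the cause was not tested. With the cell cycle genes left in the clustering the median was -0.037, with 9 of 40 members higher and 4 lower, against 5.59% and 15.3% of all genes. A clustering resolution of 1.2 was another case, where the median was 0.0097, with 4 of 40 members higher and 5 lower, against 3.78% and 13.5% of all genes. When each library was clustered on its own, the median was 0.20, with 8 of 40 members higher and 2 lower, against 3.75% and 13.3% of all genes. Without the cells that Scrublet marked as doublets the median was 0.14, with 7 of 32 members higher and 0 lower, against 5.72% and 14.7% of all genes. At the number of cells in the labels the median was 0.077, with 5 of 40 members higher and 2 lower, against 4.04% and 14.6% of all genes. Under a mitochondrial limit of 5% the median was 0.23, with 10 of 34 members higher and 0 lower, against 6.43% and 15.6% of all genes. In the clustering used here, 46 Id2Δ/Δ cells formed a stem cluster whose leading genes include the members Cenpa, Knstrn, Cdkn3, Cenpe and Cenpf, whereas the Id2+/+ cells with many members lay in that library's platelet-biased cluster. In this cluster 24 of 80 cells had at least 2000 CPM of the 12 platelet markers, compared with 47 of 70 cells of the Id2Δ/Δ cluster.

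The 5 highest and 5 lowest ratios in stem cells are given as values only, since ranking chose them. The highest was that of Kif20a, with 1.64 CPM (2 UMIs) in Id2+/+ and 14.5 CPM (49 UMIs) in Id2Δ/Δ, a ratio of 8.83 (2.32 to 74.9). Cdkn3 had 2.46 CPM (3 UMIs) in Id2+/+ and 18.3 CPM (62 UMIs) in Id2Δ/Δ, a ratio of 7.45 (2.43 to 37.1), and Bub1 1.64 CPM (2 UMIs) in Id2+/+ and 10.9 CPM (37 UMIs) in Id2Δ/Δ, a ratio of 6.67 (1.72 to 57.1). For these 3 genes the Id2+/+ side rested on 2 or 3 UMIs and was below the level that free RNA alone would give, 5.40, 4.73 and 3.43 CPM. Hmmr followed with 4.10 CPM (5 UMIs) in Id2+/+ and 18.0 CPM (61 UMIs) in Id2Δ/Δ, a ratio of 4.40 (1.78 to 14.0), and its Id2+/+ level, too, was below the 8.39 CPM of free RNA. The next was Knstrn with 10.7 CPM (13 UMIs) in Id2+/+ and 42.2 CPM (143 UMIs) in Id2Δ/Δ, a ratio of 3.96 (2.25 to 7.63), where free RNA alone would give 9.33 CPM in Id2+/+. At the other end Plk1 had 13.9 CPM (17 UMIs) in Id2+/+ and 10.3 CPM (35 UMIs) in Id2Δ/Δ, a ratio of 0.742 (0.405 to 1.41), with 16.4 CPM from free RNA alone in Id2+/+. Anln had a ratio of 0.824 (0.321 to 2.37), Ndc80 one of 0.915 (0.469 to 1.89), Kif23 one of 1.02 (0.575 to 1.89) and Prc1 one of 1.21 (0.693 to 2.22). All 5 of these intervals held 1.

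In platelet-biased cells the members' summed ratio was 1.55 (1.48 to 1.63) and their median log2 ratio 0.60, with 21 of 40 members tested at least 1.5-fold higher in Id2Δ/Δ, against 6.82% of all genes, and 1, Cdc25c, at least 1.5-fold lower, against 16.8%. Plk1, lowest by ratio in stem cells, had the highest ratio here, 18.6 CPM in Id2+/+ and 60.1 CPM in Id2Δ/Δ, or 3.23 (1.89 to 5.82). Prc1 and Ckap2l each had 28 UMIs in Id2+/+ and 115 in Id2Δ/Δ. Ckap2l, Aurkb and Top2a, though kept out of the clustering, were among the 10 leading genes of the Id2Δ/Δ cluster. All 12 platelet markers were detected in both libraries, and they summed to 3157 CPM (3042 to 3274) in Id2+/+ and 6999.8 CPM (6857 to 7145) in Id2Δ/Δ. Markers of other cells were lower in Id2Δ/Δ platelet-biased cells: 3136 and 2061 CPM (13 and 13 of 13 markers) for erythroid cells, 905 and 427 CPM (9 and 10 of 10 markers) for neutrophil cells, 158 and 37.0 CPM (6 and 4 of 8 markers) for B cells, 57.0 and 23.1 CPM (5 and 3 of 6 markers) for endothelial or stromal cells, 43.8 and 10.0 CPM (4 and 2 of 6 markers) for monocytes or macrophages, 26.3 and 3.08 CPM (2 and 2 of 5 markers) for mast cells or basophils and 143 and 129 CPM (2 and 1 of 5 markers) for T or NK cells, the last with overlapping intervals. The 10 leading genes of the Id2+/+ cluster include Ebf1 and Cpa3. The part of these differences in the members' ratio was not tested. Over the stem and platelet-biased cells of both classes with at least 2000 CPM of platelet markers, 24 Id2+/+ and 51 Id2Δ/Δ cells, the summed ratio was 1.31 (1.22 to 1.41), and over the 238 and 365 cells below that level it was 1.27 (1.21 to 1.33).

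Erythroid cells, too, fell into different clusters by library. Apart from the haemoglobin-rich cells, 34 of the 35 Id2+/+ cells formed a cluster with 6157 CPM of the members, while the Id2Δ/Δ cells were in a cluster of 70 with 6169 CPM, led by Mt2 and Car1, and in a cluster of 85, joined by 1 Id2+/+ cell, with 8338 CPM, led by Cldn13. The summed genotype ratio over all erythroid cells was 1.24 (1.21 to 1.27) and the median log2 ratio of the members 0.32, beside 0.03 over all genes, and the part of the clusters in it was not tested. None of the 42 was 1.5-fold higher, against 5.43% of all genes, and 2 were 1.5-fold lower, against 11.7%. These were Bub1, at 51.4 CPM (40.2 to 64.8) in Id2+/+ and 31.9 CPM (27.7 to 36.6) in Id2Δ/Δ, and Ect2, with 28 and 85 UMIs and a ratio of 0.662 (0.427 to 1.05). The interval lay above 1 for 22 members, among them Cks2, at 1.41 (1.31 to 1.505), Tacc3, at 1.40 (1.18 to 1.68), and Birc5, at 1.33 (1.22 to 1.45). It lay below 1 for 2, Bub1 and Ncapd2, the latter at 0.742 (0.596 to 0.931). Such intervals were not counted over all genes, so only the 1.5-fold calls have a background share. For the kinetochore partners the values were close to 1: Ndc80, at 0.857 (0.610 to 1.23), and Nuf2, at 1.02 (0.794 to 1.31), both with intervals that held 1. Of the erythroid cells, 9 Id2+/+ and 14 Id2Δ/Δ cells formed a cluster with 86.6% of its UMIs in haemoglobin genes. The 13 erythroid markers, all detected, summed to 68247 CPM (67815 to 68681) in Id2+/+ and 33751 CPM (33609 to 33893) in Id2Δ/Δ, and without the haemoglobin-rich cells to 18566 CPM (18335 to 18800.5) in Id2+/+ and 17855 CPM (17751 to 17959.6) in Id2Δ/Δ. Over all erythroid cells the markers were lower in Id2Δ/Δ, with intervals apart, for neutrophil cells, 764 and 345 CPM (10 and 10 of 10 markers), monocytes or macrophages, 40.7 and 11.2 CPM (2 and 3 of 6 markers), endothelial or stromal cells, 41.4 and 14.5 CPM (4 and 4 of 6 markers), and B cells, 16.4 and 7.47 CPM (5 and 8 of 8 markers). For HSCs, platelet-biased cells, T or NK cells and mast cells or basophils the intervals overlapped. The part of these markers in the members' ratio was not tested. Without the haemoglobin-rich cells the summed ratio was 1.18 (1.16 to 1.21) and the median 0.26, with 0 members 1.5-fold higher and 2 lower, against 4.81% and 12.8% of all genes.

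In neutrophil cells 29 members had enough UMIs to be tested. Their median log2 ratio was 0.38, and the summed ratio of all 42 was 1.30 (1.21 to 1.39). At least 1.5-fold higher in Id2Δ/Δ were 14, against 8.29% of all genes, and 1, Ncapd2, was lower, against 11.8%. The 12 platelet markers, of which 9 were detected in each library, summed in these cells to 77.9 CPM (54.6 to 108) in Id2+/+ and 401 CPM (356 to 449) in Id2Δ/Δ, and the 10 neutrophil markers to 71074 CPM (70308 to 71848) in Id2+/+ and 91240.1 CPM (90547 to 91937) in Id2Δ/Δ. The markers of T or NK cells were higher in Id2Δ/Δ, 1897 and 2248 CPM (1 and 1 of 5 markers), and those of erythroid cells, 1513 and 936 CPM (13 and 13 of 13 markers), and HSCs, 84.4 and 34.4 CPM (9 and 6 of 9 markers), were lower, while for the other lists the intervals overlapped. Their part in the members' ratio was not tested. Nusap1, which binds spindle microtubules, had 7 and 38 UMIs, a ratio of 3.45 (1.52 to 9.16), and Cenpa had a ratio of 2.24 (1.52 to 3.39). Smc4, at 0.968 (0.736 to 1.28), and Cks2, at 1.04 (0.889 to 1.21), lay close to 1. With 27 and 40 cells, 30 of 42 intervals held 1.

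Members were also counted per cell. Since a deeper cell shows more genes, 5800 UMIs were drawn at random from each cell, and the number of members with at least 1 UMI was taken. At that depth 64 Id2+/+ and 0 Id2Δ/Δ stem cells were too shallow and were left out. Stem cells had a median of 4 members in both libraries, and platelet-biased cells 6 and 7. Erythroid cells had 16 and 20, and neutrophil cells 8 and 9. At least 5 members were found in 33.9% (25.4 to 43.2) of 118 Id2+/+ stem cells and 40.8% (35.5 to 46.1) of 346 Id2Δ/Δ stem cells, and without thinning in 43.4% and 65.0%. Free RNA alone would put at least 5 members in 16.2% and 3.21% of cells.

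At least 10 members were found in 0 of 118 Id2+/+ stem cells, which at the limit of 3 counts for a 0 allows a share of up to 2.54% (Clopper-Pearson upper limit 3.08%), and in 33 of 346 Id2Δ/Δ stem cells, 9.54% (6.66 to 13.1). Without thinning the shares were 2.198% of all 182 and 20.8% of 346 stem cells. In platelet-biased cells the shares were 24.4% (15.3 to 35.4) and 45.7% (33.7 to 58.1), in erythroid cells 81.0% (65.9 to 91.4) and 90.5% (85.1 to 94.5), and in neutrophil cells 25.9% (11.1 to 46.3) and 45% (29.3 to 61.5). Of the 33 Id2Δ/Δ stem cells, 23 belonged to the 46 cells of the cluster led by Ccnb2, 8 to the 113 cells led by Ung and 2 to the 187 cells led by Cd74. Over stem and platelet-biased cells together, where the placing of cells between the classes does not matter, the shares with at least 10 members were 9.69% (5.94 to 14.7) and 15.6% (12.3 to 19.5), with overlapping intervals, and without thinning 15.6% and 29.1%. The shares with at least 5 members were 46.4% (39.3 to 53.7) and 46.4% (41.5 to 51.3). These thinned shares rest on 196 of 262 Id2+/+ cells and on all 416 Id2Δ/Δ cells. The 66 Id2+/+ cells left out as too shallow were 64 stem and 2 platelet-biased cells. The members' UMIs were concentrated in few cells: the 26 Id2+/+ and 42 Id2Δ/Δ cells with most member UMIs held 54.1% and 57.1% of them.

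**Figure D4:**
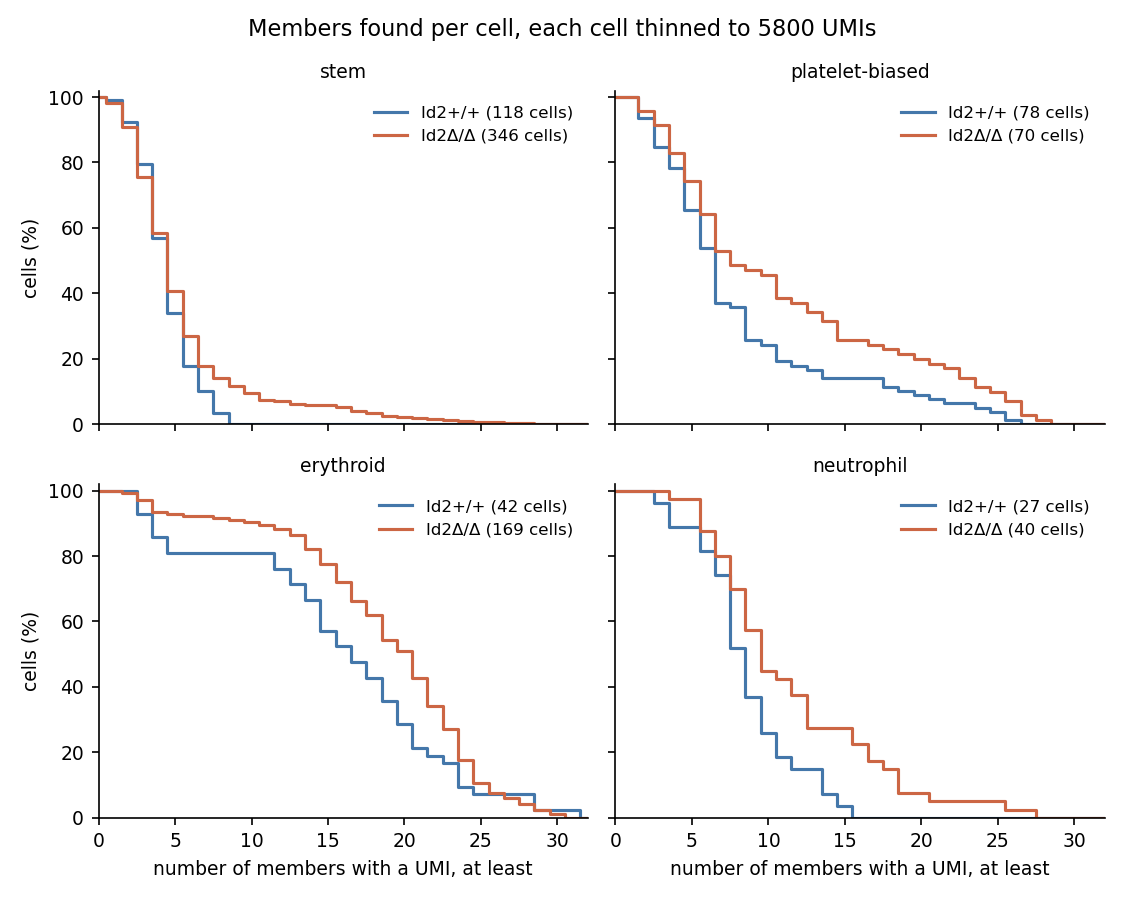
Share of cells (vertical axis, percent) with at least the given number of the 42 members (horizontal axis) at 5800 UMIs per cell, in the 4 cell classes, Id2+/+ in blue and Id2Δ/Δ in orange, with the number of cells in each legend. The stem cell lines run together up to about 5 members, after which the Id2+/+ line reaches 0 above 8 members and the Id2Δ/Δ line runs on to 28; erythroid lines fall late, with medians of 16 and 20 members.

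Because the members stood high in the barcodes of 1 to 100 UMIs, the share of free RNA in the cells bears on their level in stem cells. Taking every haemoglobin UMI of the stem cells as free RNA, free RNA made up 11.0% of their UMIs in Id2+/+ and 5.86% in Id2Δ/Δ. At the profile of the barcodes of 1 to 100 UMIs this amounts to 671 of the 955 member UMIs in Id2+/+ stem cells, 70.3%, and to 1152 of 4797, 24.01%, in Id2Δ/Δ stem cells. In the Id2+/+ stem cells 20 of 42 members were at or below this level and 10 were at least 2 times above it, whereas in the Id2Δ/Δ stem cells the numbers were 1 and 36. Smc4 had 105 CPM measured against 25.1 CPM from free RNA in Id2+/+, and Cks2 130.3 against 68.1 CPM. Plk1 lay at its free RNA level in both libraries, 13.9 against 16.4 CPM in Id2+/+ and 10.3 against 8.97 CPM in Id2Δ/Δ, with intervals that held the estimate. Cdc25c was the 1 member at or below its estimate in Id2Δ/Δ stem cells, with 3 UMIs. Over stem and platelet-biased cells the same estimate was 29.4% and 13.9% of the members' UMIs, no member was at or below it, and 36 and 42 were at least 2 times above it. After subtraction the median log2 ratio between genotypes over both classes was 0.67 in place of 0.50.

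**Figure D5:**
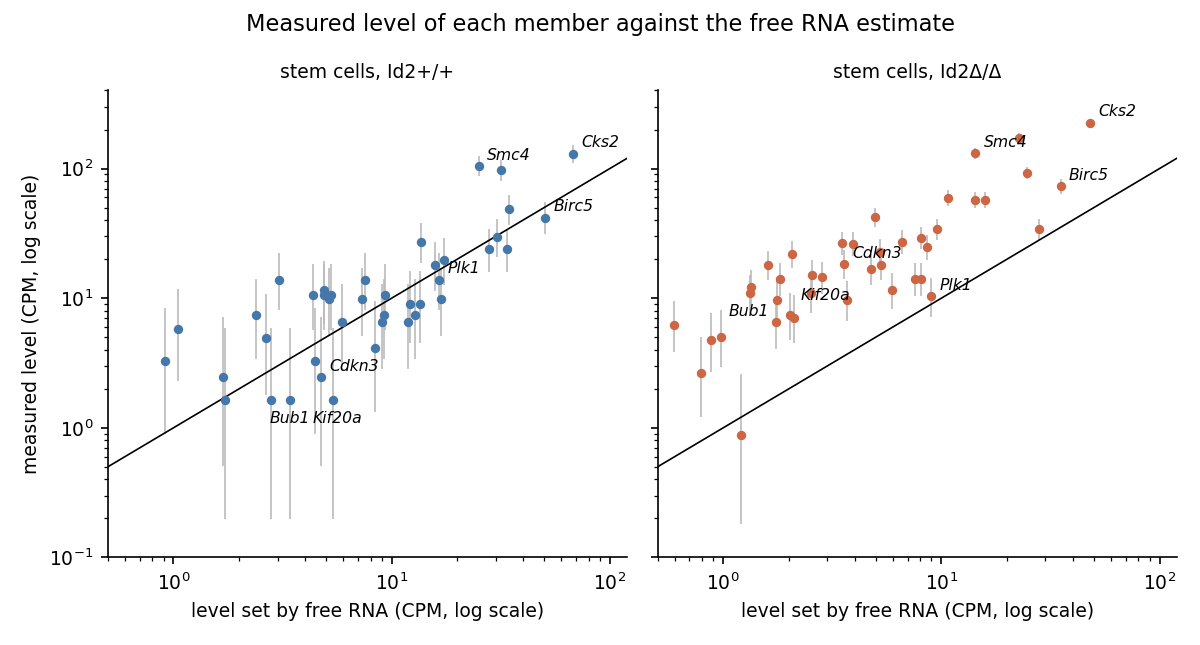
Measured level of each member in stem cells (vertical axis, CPM, log scale) against the level that free RNA alone would give (horizontal axis, CPM, log scale), Id2+/+ on the left and Id2Δ/Δ on the right, with 95% Poisson intervals and the line of equal values. In Id2+/+ 20 of 42 members lie on or below the line (Cdc25c, with 0 UMIs there, is not drawn), and in Id2Δ/Δ 1 does.

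A further list of 70 mitotic genes outside the 42 was set beside them. Over stem and platelet-biased cells 67 were tested, their median log2 ratio was 0.43, and 22 were at least 1.5-fold higher in Id2Δ/Δ and 0 lower, where 3.30% and 13.5% of all genes were. The 3 with most UMIs in stem cells were the checkpoint protein Bub3, with a ratio of 1.04 (0.917 to 1.17), the kinetochore protein Zwint, with 1.33 (1.12 to 1.59), and the condensin II subunit Ncaph2, with 1.14 (0.957 to 1.37). Of 50 DNA replication genes, all tested, the median was 0.33, with 6 higher and 1 lower against the same shares of all genes. In erythroid cells the medians of these 2 lists were 0.18 and 0.12, beside 0.32 for the 42 members. In neutrophil cells they were 0.22 and -0.06, beside 0.38.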

How the data were processed

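Single-cell RNA was measured in 2 libraries, 1 per genotype. The authors deposited raw UMI counts per gene and barcode (27998 genes, 737280 barcodes in each library), with no call of cells. The submitters' processing notes name Cell Ranger 2.2.0 and mm10, whose coordinates RefSeq's GRCm38.p6 annotation shares.

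The 42 members and every gene and marker list were chosen with earlier results of these data known. Barcodes with at least 10% of the UMIs at the 99th percentile of the 1000 deepest were called cells, and 16 and 7 of them were dropped for a mitochondrial share of 10% or more. Cells of both libraries were clustered (Scanpy 1.11.5; 2000 variable genes, 20 components, 15 neighbours, Leiden resolution 1, then 0.8 after erythroid and neutrophil clusters were set apart) without 162 cell cycle genes. A cluster was set apart when at least 4 markers of a type passed a log2 fold of 1 in 25% of its cells, and was named when at least 3 markers passed 0.5 in 10%. No doublet caller was used in the main values. Counts were summed over cells and scaled to CPM, with exact Poisson intervals, the exact conditional interval for ratios and Clopper-Pearson intervals for shares. Log2 ratios had 0.5 added to each count and were taken for genes with at least 20 UMIs over the pair; 1.5-fold (genotypes) or 2-fold (classes) counted as past the fold. Free RNA per cell was set by 4 haemoglobin genes in stem cells and given to every class. Scripts were tested on simulated data.

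Named in full were the member of each role group with most UMIs in stem cells and the 5 highest and 5 lowest stem cell ratios; others named were chosen after their values were seen. Depth ran from 4419 UMIs (Id2+/+) and 6181 UMIs (Id2Δ/Δ) per cell upward. Alternatives covered the calling of cells, the mitochondrial limit, clustering, doublets (Scrublet), free RNA, scaling (edgeR 4.0.16 TMM, DESeq2 1.42.0 size factors), minimum counts, the fold and thinning. Python 3.11.15, numpy 2.4.6 and scipy 1.17.1 were used.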

Additional observations from a re-analysis of the deposited data

Results flagged for a closer look

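Bub1 had a ratio of 2.54 (1.36 to 5.16), Id2Δ/Δ over Id2+/+, in stem and platelet-biased cells and of 0.621 (0.472 to 0.823) in erythroid cells of the same libraries. It was picked out because the ratio pointed in opposite directions in the cell groups, with each interval clear of 1; the difference between the groups was not tested. Id2+/+ stem and platelet-biased cells held 12 Bub1 UMIs.

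Barcodes between the empty droplets and the called cells entered no comparison in the main processing. Some of them entered the alternative calls of cells given below. In Id2+/+ the 1610 barcodes of 101 to 4418 UMIs had 4395 CPM (4217 to 4578) of the 42 members, and in Id2Δ/Δ the 2231 barcodes of 101 to 6180 UMIs had 3956 CPM (3853 to 4061), with all 42 members detected in both. These were picked out as signal in data that the main processing left aside. Their levels were above those in stem cells and below those in the barcodes of 1 to 100 UMIs.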

How the results depend on the processing

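The members' median log2 ratio between genotypes stayed above 0 in stem and platelet-biased cells together (from 0.36 to 0.67 over 14 alternatives), in platelet-biased (0.45 to 1.01), erythroid (0.26 to 0.47) and neutrophil cells (0.35 to 0.71), while in stem cells alone it ran from -0.037 to 0.88, with 4 to 28 members higher past the fold, leaving aside the subtraction of free RNA. That subtraction left 20 of 42 members at 0 counts in Id2+/+ stem cells, so the medians it gives against those cells rest on the added 0.5 and are no estimates. With 3 counts as the least level there and no count added, a choice made after seeing the data, they were 1.72 for the genotypes (34 members), 4.07 for erythroid over stem and 3.91 for empty droplets over stem, against 0.87, 3.02 and 2.99 without the subtraction. These are no bounds, since the subtraction takes every haemoglobin UMI in stem cells as free RNA and may remove too much. In erythroid over stem and empty droplets over stem, 35 to 42 members were past the fold under these alternatives, where no share of all genes was taken. For the genotype counts in stem cells, such shares were taken only in the main processing and the calling, mitochondrial, clustering and doublet alternatives. No paired analysis was possible because only 1 library stands for each genotype. Depth limits the low members, since Ttk, Gtse1 and Cdc25c had under 20 UMIs in stem cells. Over 20 random draws the share of stem cells with at least 5 members ran from 25.4% to 36.4% in Id2+/+ and from 36.7% to 41.0% in Id2Δ/Δ. TMM and DESeq2 scaling shifted every gene by less than 0.1 between genotypes, while they subtracted -0.27 and -0.30 in Id2+/+ and -0.29 and -0.31 in Id2Δ/Δ from every erythroid over stem log2 ratio, and -0.093 and -0.12 in Id2+/+ and -0.32 and -0.36 in Id2Δ/Δ from every empty droplet over stem one, which raised those ratios. In all, 241 alternative values stayed within the counting interval or 1.5 times the count, 94 moved further and 1 changed sign, as follows, and the cause was not tested.

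Calling every barcode from 1000 UMIs and 500 genes up gave a median log2 genotype ratio of 0.38 in stem cells. There 12 members were higher and 2 lower, against 5.93% and 16.2% of all genes. This call also gave an erythroid over stem median of 2.58 in Id2+/+, a stem sum of 1018 CPM in Id2+/+ and 1329 CPM in Id2Δ/Δ, a platelet-biased sum of 2204 CPM in Id2+/+, an erythroid sum of 7293 CPM in Id2Δ/Δ and a share of cells past the member limit of 19.8% in Id2+/+ and 28.0% in Id2Δ/Δ. Calling the number of cells in the labels gave a median log2 genotype ratio of 0.077 in stem cells and 1.01 in platelet-biased cells, 5 higher and 2 lower among members in stem cells, an erythroid over stem median of 2.23 in Id2+/+, an empty droplet over stem median of 1.98 in Id2+/+, a stem sum of 1197 CPM in Id2+/+ and 1337 CPM in Id2Δ/Δ, a platelet-biased sum of 2277 CPM in Id2+/+ and 4173 CPM in Id2Δ/Δ and a share of cells past the member limit of 32.3% in Id2Δ/Δ. A mitochondrial limit of 5% gave a median log2 genotype ratio of 0.23 in stem cells, 10 higher among members in stem cells, an erythroid over stem median of 3.03 in Id2Δ/Δ, an empty droplet over stem median of 2.62 in Id2Δ/Δ, a stem sum of 1032 CPM in Id2Δ/Δ, a platelet-biased sum of 3623 CPM in Id2Δ/Δ and a share of cells past the member limit of 34.1% in Id2Δ/Δ. Cell cycle genes left in the clustering gave a median log2 genotype ratio of -0.037 in stem cells and 0.998 in platelet-biased cells, 9 higher and 4 lower among members in stem cells, an erythroid over stem median of 1.97 in Id2+/+, an empty droplet over stem median of 1.86 in Id2+/+, a stem sum of 1339.9 CPM in Id2+/+ and a platelet-biased sum of 1832 CPM in Id2+/+ and 3475 CPM in Id2Δ/Δ. Clustering each library alone gave a median log2 genotype ratio of 0.20 in stem cells, 8 higher and 2 lower among members in stem cells, an erythroid over stem median of 2.23 in Id2+/+, an empty droplet over stem median of 1.93 in Id2+/+, a stem sum of 1191 CPM in Id2+/+ and a platelet-biased sum of 3541 CPM in Id2Δ/Δ. Resolution 1.2 gave a median log2 genotype ratio of 0.0097 in stem cells, 4 higher and 5 lower among members in stem cells, an erythroid over stem median of 2.08 in Id2+/+, an empty droplet over stem median of 1.87 in Id2+/+, a stem sum of 1285 CPM in Id2+/+ and a platelet-biased sum of 2139.7 CPM in Id2+/+ and 3402 CPM in Id2Δ/Δ. Leaving out cells marked by Scrublet gave a median log2 genotype ratio of 0.14 in stem cells, 7 higher among members in stem cells, an erythroid over stem median of 3.26 in Id2Δ/Δ, an empty droplet over stem median of 2.75 in Id2Δ/Δ, a stem sum of 934 CPM in Id2Δ/Δ, a platelet-biased sum of 3557 CPM in Id2Δ/Δ and a share of cells past the member limit of 28.3% in Id2Δ/Δ. Subtracting the empty droplet profile gave a median log2 genotype ratio of 2.92 in stem cells and 0.67 in stem and platelet-biased cells, an erythroid over stem median of 5.53 in Id2+/+ and 2.71 in Id2Δ/Δ, an empty droplet over stem median of 5.49 in Id2+/+ and 2.31 in Id2Δ/Δ, a stem sum of 343 CPM in Id2+/+ and 1143 CPM in Id2Δ/Δ and a platelet-biased sum of 2385 CPM in Id2+/+. Averaging each cell's CPM gave a median log2 genotype ratio of 0.47 in erythroid cells, 1 lower among members in stem cells, a stem sum of 1313 CPM in Id2Δ/Δ, a platelet-biased sum of 2352 CPM in Id2+/+ and 3463 CPM in Id2Δ/Δ and an erythroid sum of 5105 CPM in Id2+/+ and 6932 CPM in Id2Δ/Δ. TMM scaling gave an erythroid over stem median of 2.70 in Id2Δ/Δ and an empty droplet over stem median of 2.33 in Id2Δ/Δ. DESeq2 scaling gave an erythroid over stem median of 2.72 in Id2Δ/Δ and an empty droplet over stem median of 2.37 in Id2Δ/Δ. A fold of 2 gave 13 higher among members in stem cells, with no share of all genes taken at that fold. Thinning to 3000 UMIs gave a share of cells past the member limit of 5.49% in Id2+/+ and 17.6% in Id2Δ/Δ. A limit of 3 members gave a share of cells past the member limit of 79.7% in Id2+/+ and 75.4% in Id2Δ/Δ. A limit of 10 members gave a share of cells past the member limit of 0% in Id2+/+ and 9.54% in Id2Δ/Δ. Taking stem and platelet-biased cells together in place of stem cells gave a median log2 genotype ratio of 0.50, 13 higher and 1 lower among members and a share of cells past the member limit of 46.4% in Id2+/+ and 46.4% in Id2Δ/Δ. Taking all cells under 2000 CPM of platelet markers as stem cells gave a median log2 genotype ratio of 0.34. Taking the cells with Xist alone gave a median log2 genotype ratio of 0.44. Taking the cells with Y-linked UMIs alone gave a median log2 genotype ratio of 0.49. Taking all cells from 2000 CPM of platelet markers up as platelet-biased gave a median log2 genotype ratio of 0.45.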

Other observations

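In the erythroid cells of the cluster rich in haemoglobin, 9 in Id2+/+ and 14 in Id2Δ/Δ, the members summed to 529.8 CPM (383 to 714) and 2391 CPM (2123 to 2685). In Id2Δ/Δ 1 of the 14 cells held 78.7% of the member UMIs, and at 5800 UMIs the median was 3 members in both libraries. In the other erythroid cells at least 10 members were found in 34 of 34 Id2+/+ and 152 of 155 Id2Δ/Δ cells, 98.1% (94.4 to 99.6).

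Among stem and platelet-biased cells with Xist and no Y-linked UMI, 84 in Id2+/+ and 231 in Id2Δ/Δ, the members' summed ratio was 1.31 (1.23 to 1.39) and 12 of 38 tested were at least 1.5-fold higher in Id2Δ/Δ, beside 6.33% of all genes. Among those with a Y-linked UMI and no Xist, 93 and 90 cells, the ratio was 1.47 (1.37 to 1.59) and 15 of 34 were higher, beside 6.94%. These groups were chosen after the data had been seen.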
